A study of Homo sapiens with 15 samples.

Results

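The mitochondrial ribosomal proteins were followed through poly(A)-selected RNA-seq of fibroblasts and tumor cells grown together or apart. Members were all rows of the 2 gene tables whose symbol begins with MRPL or MRPS and a digit and holds no hyphen. The rule found 78 of 16382 genes listed for MRC5 and 78 of 16076 listed for H196. An MRPL symbol, for the large subunit, is carried by 49 of them and an MRPS symbol, for the small subunit, by 29.

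The study asked how fibroblasts and small cell lung cancer (SCLC) cells change one another in co-culture. MRC5 is a human lung fibroblast line, H196 a non-neuroendocrine SCLC line and H69 a neuroendocrine SCLC line. Fibroblasts were grown alone (MRC5_Mo), with H69 (MRC5_CoH69) or with H196 (MRC5_CoH196), and H196 cells were grown alone (H196_Mo) or with MRC5 (H196_Co). In co-cultures the sequenced cells grew in the well and the other line on a porous membrane insert above them, so MRC5_CoH196 and H196_Co come from opposite set-ups. Each of the 5 groups had 3 libraries, and all groups were kept for the same time before RNA extraction. Each line is 1 cell line and H69 libraries were not analysed here, so the groups describe these lines only. The labels do not say that replicates came from separate cultures, so p-values measure the spread between these samples, which may be technical.

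The mitochondrial ribosome, or mitoribosome, is the machine that translates the few messages of mitochondrial DNA, all of which encode core subunits of the respiratory chain and the ATP synthase. Its ribosomal RNAs come from mitochondrial DNA, whereas its proteins are encoded in the nucleus, made in the cytosol and imported. The small subunit reads the message and the large subunit joins amino acids at the inner membrane. Many of its proteins descend from those of bacterial ribosomes, and others were gained in the mitochondrial lineage. Genes for such proteins are commonly driven by factors of the ETS family (such as GABP), by NRF1 and by YY1.

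The 78 genes are not clustered in the genome: the 73 with chromosome coordinates lie on 21 chromosomes. A promoter of 300 bases, 250 before and 50 after the annotated start, was found in RefSeq for 70 of them (GRCh38.p14). CCGGAAG, the core site of ETS factors, was present on either strand in 29 of the 70 (41.4%), against 16% of all 13670 promoters in the table. AAGATGGCG, a YY1 site, was present in 13 (18.6%) against 3.12%. An NRF1 site, GCGCA and GCGC parted by any 1 base, was present in 8 (11.4%) against 9.74%, and ACGTG, the core bound by the hypoxia-inducible factor HIF, in 20 (28.6%) against 25%. At least 1 of the ETS, YY1 and NRF1 sites was present in 43 members (61.4%) against 25.7% of all promoters. No 2 matches of different motifs overlapped in a member promoter. Large and small subunit genes held the ETS site at like shares, 17 of 42 and 12 of 28.

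The 250 bases before the start are printed 5′ to 3′ for 5 members on which the results turn: MRPL12, MRPL3 and MRPL20, which fell by more than 1 on the log2 scale in fibroblasts with H196, MRPS6, which rose there, and MRPL17, the member with the largest change in H196 cells. Capitals mark ETS sites in MRPL3 and MRPL20, and in MRPL17 an NRF1 site followed by a HIF core read on the other strand (CACGT). They are chr17:81703117-81703366 (plus strand), chr3:131502972-131503221 (minus), chr1:1407294-1407543 (minus), chr21:34073328-34073577 (plus) and chr11:6683341-6683590 (minus), all of GRCh38.p14.
MRPL12: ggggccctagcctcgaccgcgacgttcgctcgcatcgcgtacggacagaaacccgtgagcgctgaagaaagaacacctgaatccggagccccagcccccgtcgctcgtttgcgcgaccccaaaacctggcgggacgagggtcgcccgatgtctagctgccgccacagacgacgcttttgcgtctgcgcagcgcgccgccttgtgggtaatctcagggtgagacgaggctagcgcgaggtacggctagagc
MRPL3: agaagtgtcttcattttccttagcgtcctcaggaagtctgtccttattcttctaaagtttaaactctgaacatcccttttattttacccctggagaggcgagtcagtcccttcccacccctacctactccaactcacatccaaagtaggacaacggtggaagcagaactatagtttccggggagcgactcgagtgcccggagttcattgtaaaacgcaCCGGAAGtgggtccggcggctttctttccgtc
MRPL20: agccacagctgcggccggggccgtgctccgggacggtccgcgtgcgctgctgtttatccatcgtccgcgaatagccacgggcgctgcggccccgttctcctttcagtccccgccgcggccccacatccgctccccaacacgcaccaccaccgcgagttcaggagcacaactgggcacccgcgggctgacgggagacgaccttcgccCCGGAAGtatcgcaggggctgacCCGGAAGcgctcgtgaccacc
MRPS6: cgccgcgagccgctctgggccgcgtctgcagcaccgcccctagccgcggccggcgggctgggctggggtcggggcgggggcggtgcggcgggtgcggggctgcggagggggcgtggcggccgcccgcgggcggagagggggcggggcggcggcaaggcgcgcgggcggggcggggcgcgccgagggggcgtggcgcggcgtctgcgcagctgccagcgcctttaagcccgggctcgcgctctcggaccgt
MRPL17: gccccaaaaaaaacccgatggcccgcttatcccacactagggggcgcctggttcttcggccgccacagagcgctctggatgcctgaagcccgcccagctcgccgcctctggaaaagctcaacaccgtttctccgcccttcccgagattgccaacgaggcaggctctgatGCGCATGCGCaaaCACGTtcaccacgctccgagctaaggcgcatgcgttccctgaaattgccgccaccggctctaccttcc
MRPL15 and MRPS18C, which also fell by more than 1 in fibroblasts with H196, are not printed. For MRPL15 no promoter was found, and the promoter of MRPS18C held 1 ETS and 2 HIF matches. The windows of MRPL12 and MRPS6, members that moved in opposite directions, held none of the 4 motifs. That says only that these letters are not in these windows, and a match is a description of the letters, not a bound site.

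Libraries held 16073597 to 19170560 counts. Every member was measured well above the filter on low counts, the lowest count of any member in any library being 109 in MRC5 and 100 in H196. Members took 0.279 to 0.288% of all counts in MRC5_Mo, 0.265 to 0.268% in MRC5_CoH69 and 0.193 to 0.197% in MRC5_CoH196. In H196 they took 0.446 to 0.453% in H196_Mo and 0.406 to 0.453% in H196_Co, where replicate 2 was the lowest. All 8 fibroblast markers were counted in every MRC5 library and 2 or 3 of them in H196 libraries, where their summed level was 2.05 to 3.09 CPM (counts scaled to a common library size). Summed fibroblast markers were at 26708 to 29720 CPM in MRC5_Mo, 30575 to 31614 in MRC5_CoH69 and 12604 to 13346 in MRC5_CoH196. Neuroendocrine markers summed to at most 1.12 CPM in MRC5. In bulk RNA, fewer cells of a type and less RNA per cell cannot be told apart.

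Levels of the single members spanned a wide range in every group, here in FPKM, a unit scaled to transcript length and sequencing depth, so that genes can be compared. In MRC5_Mo mean levels ran from 2.58 to 160.8 FPKM with a median of 34.2, and in H196_Mo from 5.91 to 287.0 with a median of 50.4. The highest in MRC5_Mo were MRPS24 (160.8 ± 1.57 FPKM, SD, n = 3), MRPL41 (154.5 ± 6.18) and MRPL51 (149.7 ± 6.41), and the lowest were MRPL42 (2.58 ± 0.116), MRPL50 (4.23 ± 0.212) and MRPS33 (4.77 ± 0.0513). MRPL41 and MRPL51 lie closer to each other than their spread. MRPS24 shares sequence with a listed readthrough gene on the same strand, which was given only 0, 6.49 and 2.08 counts in MRC5_Mo. How reads were shared between the 2 was not tested. In H196_Mo the highest were MRPL41 (287.0 ± 11 FPKM), MRPL51 (237.4 ± 4.15) and MRPL33 (218.3 ± 3.33), and MRPL42, MRPL50 and MRPL19 were lowest at 5.91, 8.47 and 8.73. Large subunit genes had higher medians than small subunit genes in both lines, 41.6 against 24.9 FPKM in MRC5_Mo and 58.7 against 42.0 in H196_Mo.

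In fibroblasts grown with H196, most members fell. Against MRC5_Mo, 64 of 78 members were lower and 2 were higher at an adjusted p under 0.05 (edgeR quasi-likelihood test, Benjamini-Hochberg over all 12819 genes tested), where 37.1% of all genes were lower and 37.2% higher. The lower calls were 42 of 49 large subunit genes and 22 of 29 small subunit genes. The median log2 fold change was -0.43 over the members (quartiles -0.68 and -0.25), -0.43 for the large and -0.41 for the small subunit, against -0.003 over all genes. The size of most changes was modest. By more than 0.58, 26 members were lower, read against 14.7% of all genes, and 5 fell by more than 1. With library totals alone 46 were lower by more than 0.58, against 2978 of 12819 genes. With limma on FPKM 42 and 39 were, against 2869 and 2082 genes (pseudocounts of 0.1 and 1). For 60 members all 3 MRC5_CoH196 libraries lay below all 3 MRC5_Mo libraries in CPM, against 37.9% of all genes. The number lower was 61 to 74 under the other normalizations and tools, including those based on library totals or FPKM, which put the median of all genes at -0.13 to -0.18.

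**Figure D1:**
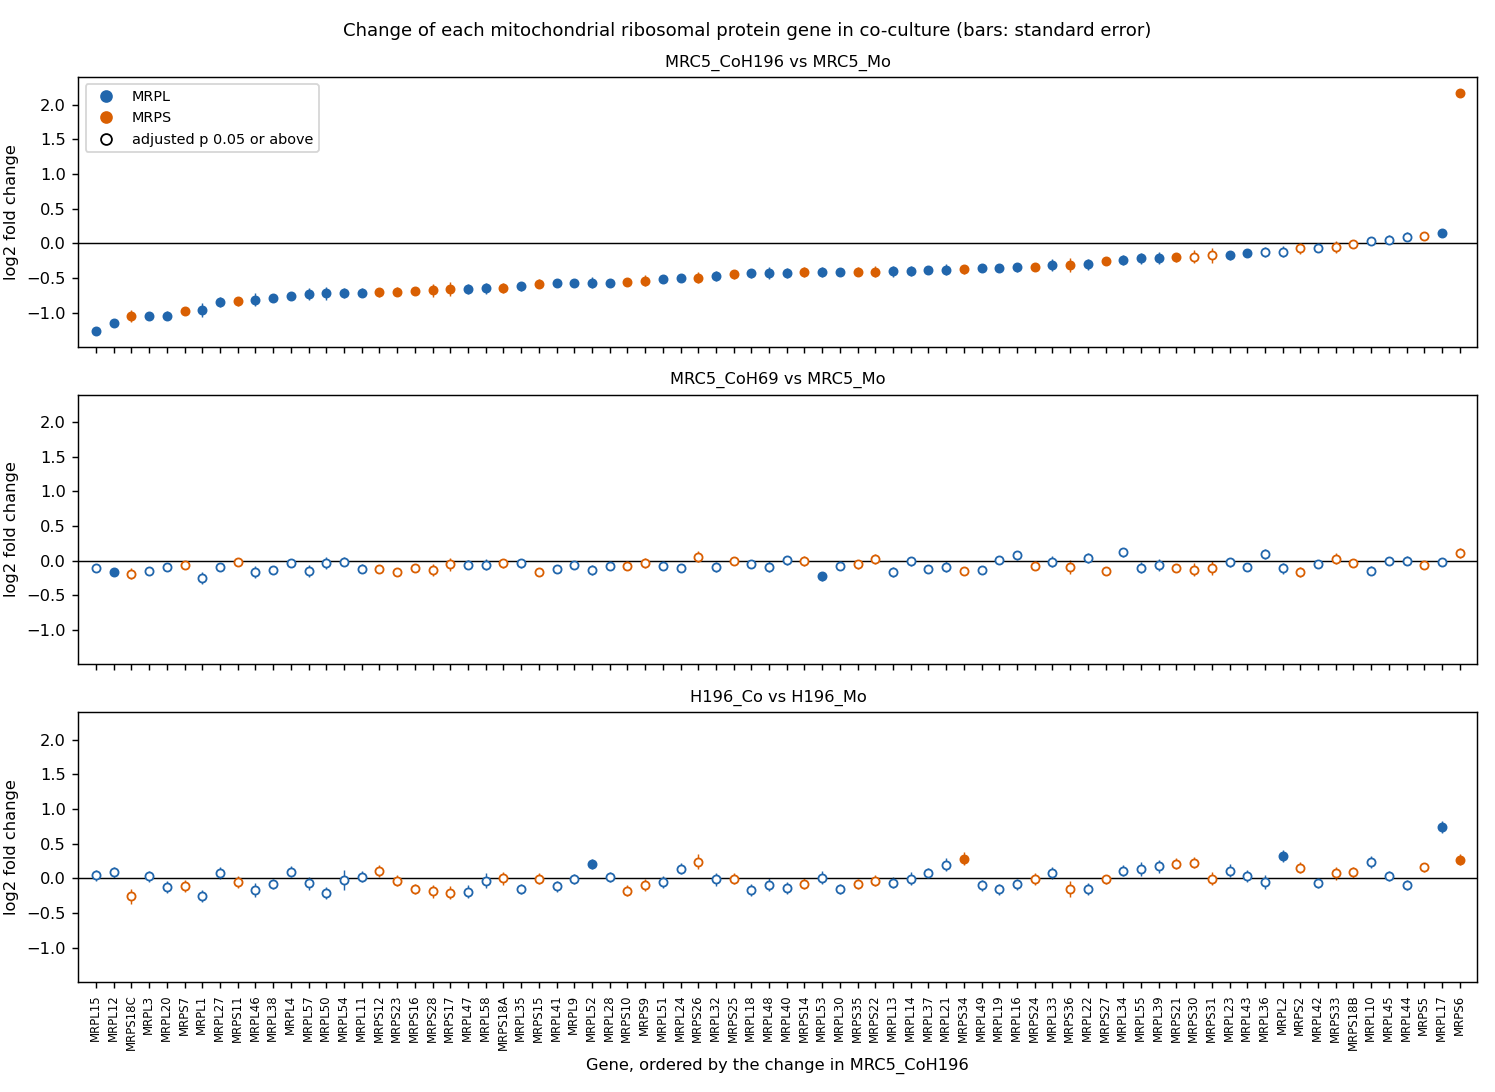
Log2 fold change (y axis) of each member in 3 comparisons, 1 per panel, with genes ordered along the x axis by their change in MRC5_CoH196, bars for the standard error, blue for MRPL and orange for MRPS genes, and open circles where the adjusted p was 0.05 or above. In MRC5_CoH196 against MRC5_Mo 72 of 78 members lie below 0 (50.3% of all genes did) and MRPS6 stands apart at 2.16, whereas in H196_Co against H196_Mo values run from -0.26 to 0.74.

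The largest fall was that of MRPL15, a large subunit protein with a bacterial homologue. It was at 36.72, 37.37 and 40.78 FPKM in MRC5_Mo, 35.62, 36.83 and 36.38 in MRC5_CoH69 and 14.51, 13.99 and 14.65 in MRC5_CoH196. All libraries with H196 were below all others, and those with H69 overlapped those of fibroblasts alone. The log2 fold change with H196 was -1.26 ± 0.058 (SE), with an adjusted p of 6.95e-16.

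MRPL12, the mitochondrial counterpart of the bacterial stalk protein L7/L12, which recruits translation factors, was at 88.88, 94.46 and 94.33 FPKM in MRC5_Mo and at 36.97, 37.5 and 37.13 in MRC5_CoH196. The 3 libraries with H196 were near one another and far below those of fibroblasts alone, and the log2 fold change was -1.15 ± 0.0525 (adjusted p = 6.29e-16). MRPL12 shares 4629 bases on the same strand with SLC25A10, a mitochondrial dicarboxylate carrier, whose own log2 fold change was -1.37 ± 0.144 (adjusted p = 5.25e-09), so reads could be split between them and their values are uncertain.

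MRPS18C, 1 of 3 human counterparts of bacterial S18, was at 15.1, 15.54 and 16.44 FPKM in MRC5_Mo and 7.19, 7.33 and 6.01 in MRC5_CoH196. The groups did not overlap, and MRPS18C fell by 1.05 ± 0.0889 on the log2 scale (adjusted p = 1.02e-10). Of the other members of its family, MRPS18A, which is built into the large subunit despite its symbol, went from 27.56, 29.29 and 28.74 FPKM to 15.52, 15.02 and 18.03, a log2 fold change of -0.65 ± 0.0736 (adjusted p = 2.05e-08). MRPS18B, named after its values were seen, was the exception of the family at -0.01 with an adjusted p of 0.892.

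MRPL20 and MRPL3, both large subunit proteins with bacterial homologues, fell to a like extent. MRPL20 was at 101.8, 112 and 103.2 FPKM in MRC5_Mo and 46.5, 46.54 and 41.71 in MRC5_CoH196 (log2 fold change -1.04 ± 0.0625, adjusted p = 1.23e-13). MRPL3, named after its values were seen, was at 63.69, 64.69 and 67.3 FPKM and at 26.48, 30.18 and 27.56 (-1.05 ± 0.0517, adjusted p = 2.79e-15). Neither gene's groups overlapped. MRPS7, the small subunit counterpart of bacterial S7 and also named after its values were seen, had means of 50.2 and 22.6 FPKM and a log2 fold change of -0.98.

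**Figure D2:**
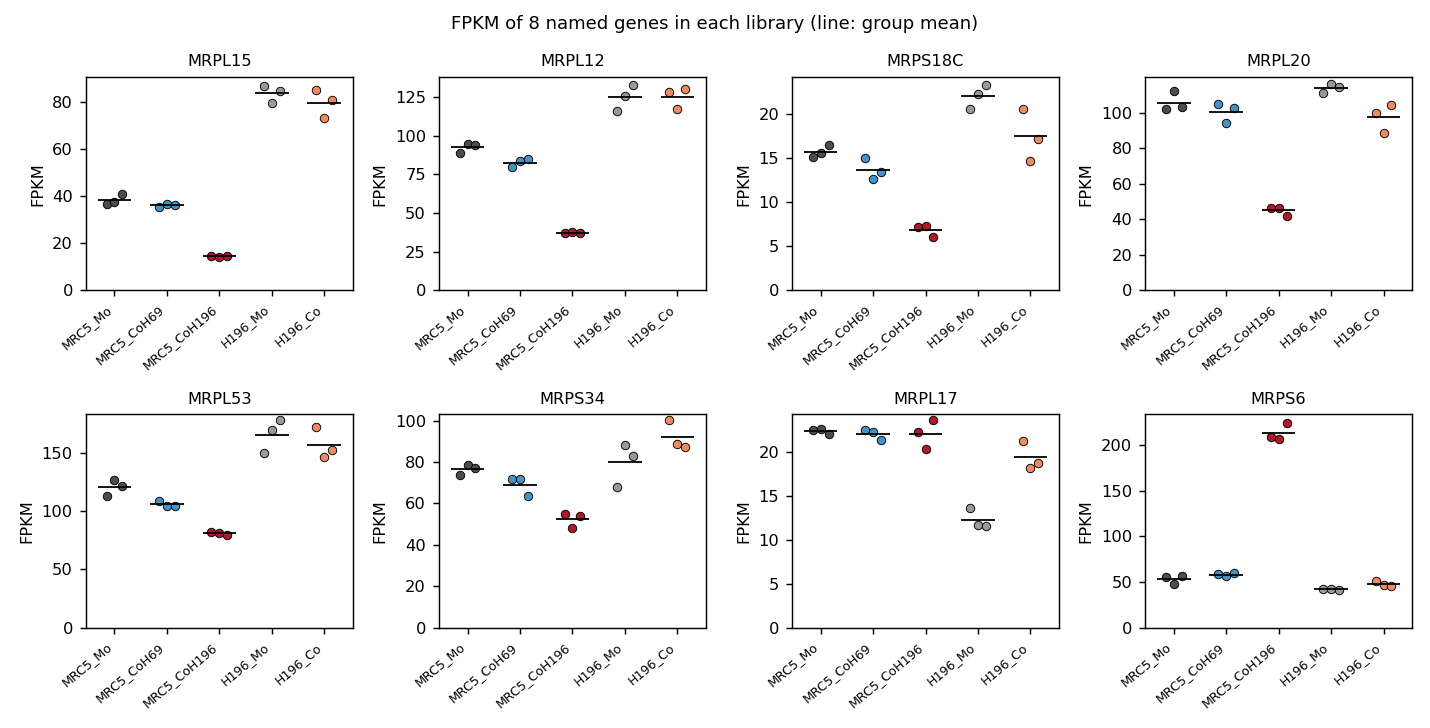
FPKM (y axis) of 8 members in each of the 15 libraries, grouped by culture along the x axis, with bars at the group means. MRPL15, MRPL12, MRPS18C and MRPL20 sit lowest in MRC5_CoH196 among the fibroblast groups, MRPS6 is highest there at a mean of 213.5, and MRPL17 is higher in H196_Co than in H196_Mo.

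MRPS6, the small subunit counterpart of bacterial S6, went strongly against the other members. It was at 55.98, 47.83 and 57.07 FPKM in MRC5_Mo, 58.57, 56.36 and 59.4 in MRC5_CoH69 and 209.4, 206.7 and 224.4 in MRC5_CoH196. Every library with H196 was far above every other fibroblast library, which made a member of intermediate level the most abundant of the 78 in that group. The log2 fold change was 2.16 ± 0.0584 (adjusted p = 1.26e-20).

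MRPS6 lies at chr21:34073578-34360033 and SLC5A3, which encodes a myo-inositol transporter, at chr21:34073231-34106260 (GRCh38.p13, as deposited). SLC5A3 starts before MRPS6 and shares 32683 bases with it on the same strand. The MRPS6 promoter window printed above lies within the span of SLC5A3. SLC5A3 had 649, 653 and 689 counts in MRC5_Mo, 696, 697 and 750 in MRC5_CoH69 and 2519, 2851 and 2828 in MRC5_CoH196. Its log2 fold change with H196, 2.20 ± 0.0561 (adjusted p = 4.10e-21), was near that of MRPS6. How reads were shared between the 2 genes was not tested, so the value of MRPS6 is uncertain. In H196_Co, SLC5A3 was at -0.03 (adjusted p = 0.871) and MRPS6 at 0.27 ± 0.0825 (adjusted p = 0.0255).

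The other member called higher with H196 was MRPL17, a large subunit protein with a bacterial homologue. It was at 22.5, 22.67 and 22.06 FPKM in MRC5_Mo and 22.27, 20.4 and 23.69 in MRC5_CoH196. These libraries overlap, and the log2 fold change of 0.16 ± 0.0581 (adjusted p = 0.0192) turned to -0.02 with library totals alone and on FPKM, so no direction can be read for it.

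The 12 remaining members did not pass the test in this comparison. They were MRPS30, MRPS31, MRPL36, MRPL2, MRPL42, MRPS2, MRPS33, MRPS18B, MRPL10, MRPL45, MRPS5 and MRPL44, with log2 fold changes from -0.19 to 0.10. MRPS30, a large subunit protein despite its symbol, was at 11.52, 12.82 and 10.55 FPKM in MRC5_Mo and 8.16, 9.74 and 9.28 in MRC5_CoH196 (-0.19, adjusted p = 0.0625). MRPS36, now known as a part of the 2-oxoglutarate dehydrogenase complex and not of the ribosome, was at 14.04, 15.06 and 15.92 FPKM against 8.46, 11.31 and 12.5 (-0.31 ± 0.102, adjusted p = 0.00828).

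Of all genes tested in this comparison, 37.1% were lower and 14.7% were lower by more than 0.58. Sorted by their place in the known structure, 43 of 51 large subunit genes and 20 of 26 small subunit genes were lower. Both groups had a median log2 fold change of -0.43. Members with bacterial homologues and those gained in mitochondria were lower in 40 of 48 (median -0.48, 19 past 0.58) and in 23 of 29 (-0.41, 7 past 0.58), and both higher members have bacterial homologues. All 8 genes of the central protuberance, which contacts the small subunit, were lower, with a median of -0.54. In the stalk, MRPL11 and MRPL12 were lower and MRPL10 did not pass the test at 0.03. Around the peptide exit tunnel, 4 of 6 were lower with a median of -0.19, and MRPL44 and MRPL45 were at 0.10 and 0.05 without passing the test. The differences between these groups and sites were not tested.

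Summed over members, the large subunit fell more than the small one, and MRPS6 made most of that gap. The large subunit sum was 2446, 2554 and 2546 FPKM in MRC5_Mo and 1623, 1585 and 1573 in MRC5_CoH196, 36.6% lower in the mean. The small subunit sum was 927.8, 946.7 and 964.8 FPKM in MRC5_Mo and 802.4, 792.8 and 817.2 in MRC5_CoH196, 15% lower. Neither sum overlapped between the groups. The ratio of large to small went from 2.66 ± 0.0346 to 1.98 ± 0.0511 (SD, n = 3).

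Without MRPS6 the small subunit sum was 33.8% lower, close to the large subunit. The ratio was then 2.82 ± 0.0207 in MRC5_Mo and 2.70 ± 0.042 in MRC5_CoH196, still without overlap, since libraries with H196 ran from 2.65 to 2.74 and those of fibroblasts alone from 2.81 to 2.84. In CPM scaled by trimmed mean of M values (TMM) the large subunit was 28.2% lower and the small one 25.1% lower without MRPS6. No p is given for these sums, since they are scores over a chosen list.

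**Figure D3:**
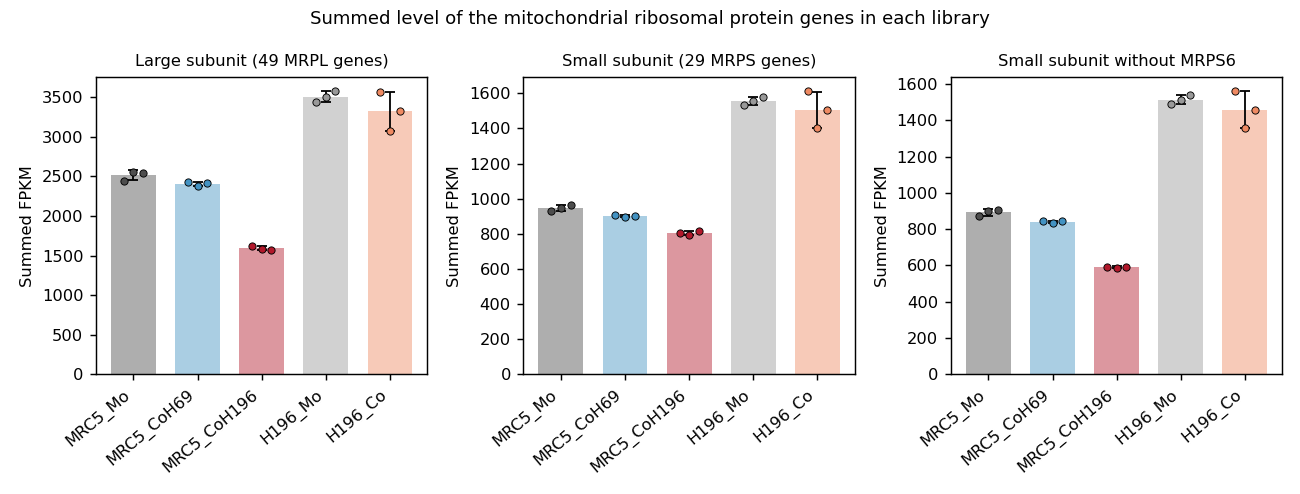
Summed FPKM (y axis, scaled to each panel) of large subunit members, small subunit members, and small subunit members without MRPS6 in the 5 groups, with points for libraries, bars for group means and error bars for the SD. The MRC5_CoH196 sums, 1573 to 1623 for the large subunit, lie below those of the other fibroblast groups, and the small subunit bar drops further once MRPS6 is left out.

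In fibroblasts grown with H69, changes were small. Against MRC5_Mo, 2 members were lower and 0 higher at an adjusted p under 0.05 by edgeR, against 2.93% lower and 3.78% higher among all genes, and by DESeq2 0 were lower. At an unadjusted p under 0.05, 17 were lower and 0 higher, against 9.45% and 10.6% of all genes. The median log2 fold change was -0.07 for the members and for each subunit, and 67 of 78 members were below 0 against 50% of all genes. The large subunit sum was 4.28% lower and the small one 4.9% lower in FPKM.

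The 2 members called lower were MRPL53 and MRPL12. MRPL53, a large subunit protein gained in mitochondria, was at 112.8, 126.6 and 121.6 FPKM in MRC5_Mo, 108.9, 104.6 and 104.5 in MRC5_CoH69 and 82.48, 80.92 and 79.81 in MRC5_CoH196. All libraries with H69 lay below those of fibroblasts alone (-0.22 ± 0.0633, adjusted p = 0.0324), and those with H196 lay below both (-0.41 ± 0.0657, adjusted p = 3.98e-06). MRPL12 was at 79.9, 83.53 and 84.86 FPKM in MRC5_CoH69, below its 3 MRC5_Mo values (-0.16 ± 0.0476, adjusted p = 0.0389). MRPL53 overlaps CCDC142 on the same strand, so its counts are uncertain too. Both calls were lost when any library of either group other than MRC5_Mo replicate 1 was left out. Without MRC5_Mo replicate 1, 6 members were lower, against 486 of 12931 genes.

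Compared directly, fibroblasts with H196 had lower levels than those with H69 for 59 members (40 large, 19 small) and higher levels for 4, against 36.6% and 35.7% of all genes. Both co-cultures are otherwise set against the same MRC5_Mo libraries, so their values are given side by side and their overlap is not read as a result. The median was -0.40, with -0.39 for the large and -0.42 for the small subunit. MRPL15 (-1.16), MRPL12 (-0.98) and MRPL20 (-0.96 ± 0.063, adjusted p = 9.33e-13) had the largest falls.

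The 4 higher members were MRPS6 (2.05 ± 0.0578, adjusted p = 3.76e-20), MRPL10 (0.17 ± 0.0623, adjusted p = 0.0174), MRPL17 (0.17, adjusted p = 0.013) and MRPS5 (0.16). MRPS5 shares 26448 bases on the same strand with ZNF514, which was higher by 0.63 (adjusted p = 8.32e-07), so its counts are uncertain. MRPL10, a stalk protein, was at 21.62, 23.48 and 21.83 FPKM with H69 and 22.86, 21.69 and 22.5 with H196, which overlap. With library totals alone, MRPL10 and MRPL17 were at 0.01 and did not pass the test, and 1 member was then higher. Without MRC5_CoH69 replicate 1 or 3 there were 2.

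In H196 cells grown with MRC5, most members did not pass the test. Against H196_Mo, 5 members were higher and 0 lower at an adjusted p under 0.05 by edgeR, against 12% higher and 7.78% lower among all 12806 genes tested. By DESeq2 3 were higher and 0 lower, and at an unadjusted p under 0.05 edgeR gave 10 in each direction, against 18.4% and 15.1%. The libraries of the 2 groups stood apart in CPM for 16 members, 9 with H196_Co above (20.2% of all genes) and 7 with it below (17.0%). The median log2 fold change was -0.01 over the members, -0.02 for the large and -0.01 for the small subunit. For 76 of 78 members the 95% interval lay above -0.43, the median fall seen in MRC5_CoH196.

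This balance depends on the scaling. With library totals alone 2 members were higher and 12 lower, against 1024 and 2067 of all 12806 genes. That scaling put the median of all genes at -0.08. The 2 subunit sums were 5.31% and 3.17% lower in FPKM but 0.519% and 1.08% higher in TMM-scaled CPM, so no direction can be read for them. H196_Co replicate 2 was the lowest library in both FPKM sums, and without it 12 members were higher, against 1519 of 12893 genes. Without H196_Co replicate 1 or 3 or H196_Mo replicate 1 there was 1 higher, and without H196_Mo replicate 3 there were 2. Without H196_Co replicate 1 there were 4 lower, against 706 of 12883 genes.

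MRPL17 had the largest change in H196 cells. It was at 13.59, 11.73 and 11.62 FPKM in H196_Mo and 21.24, 18.17 and 18.82 in H196_Co, with every co-culture library above every library of H196 alone (0.74 ± 0.0882, adjusted p = 5.46e-06). MRPL2, the counterpart of a core bacterial protein at the peptidyl transferase center, was at 31.11, 32.72 and 33.21 FPKM and at 40.99, 35.38 and 38.15, also without overlap (0.32 ± 0.0848, adjusted p = 0.0119), though its call was lost without H196_Co replicate 1 (0.26) or 3 (0.31) or H196_Mo replicate 1 (0.27). Both lie below the median of the members in this line.

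Among the other 3 higher members the changes were smaller. MRPS34, a small subunit protein gained in mitochondria, was at 68.13, 88.45 and 83.15 FPKM in H196_Mo and 100.4, 88.95 and 87.34 in H196_Co (0.28 ± 0.0951, adjusted p = 0.0407). Its groups overlap in FPKM, and its call was lost with DESeq2 and without any 1 of 4 libraries (0.16 to 0.32), H196_Co replicates 1 and 3 and H196_Mo replicates 1 and 3. MRPL52, a large subunit protein gained in mitochondria, was at 68.82, 66.04 and 64.08 FPKM and 75.74, 68.68 and 70.43 (0.21 ± 0.0723, adjusted p = 0.045). Its highest value in H196_Mo exceeded its lowest in H196_Co. MRPS6 was at 41.98, 42.41 and 41.49 FPKM and 51.59, 46.21 and 45.74, without overlap. The calls of MRPL52 and MRPS6 too were lost without H196_Co replicate 1 or 3 or H196_Mo replicate 1, where MRPL17 was the 1 member called higher. Without H196_Mo replicate 3 only 2 members in all, MRPL17 among them, were called higher. At least 1 of MRPL52 and MRPS6 thus lost its call there as well.

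MRPL52 and MRPS34 were the members called in opposite directions in fibroblasts with H196 and in H196 cells with fibroblasts, with calls in H196 that rest on single libraries. In fibroblasts MRPL52 went from 50.42, 53.31 and 49.06 to 35.36, 28.49 and 28.57 FPKM (-0.57 ± 0.0759, adjusted p = 2.84e-07). MRPS34 went from 73.64, 78.82 and 77.22 to 54.93, 48.37 and 53.85 FPKM (-0.38 ± 0.0624, adjusted p = 7.07e-06). Their groups did not overlap in fibroblasts.

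The difference between the response of MRC5 to H196 and that of H196 to MRC5, measured in opposite set-ups, was tested in 1 fit over all 15 libraries. Relative to H196 cells, the response of fibroblasts was lower for 64 members (42 large, 22 small) and higher for 1, MRPS6, against 27.1% and 24.1% of all 13585 genes tested. The median difference was -0.47, with -0.48 for the large and -0.44 for the small subunit. It was -1.33 ± 0.0921 for MRPL15 (adjusted p = 3.75e-12), -1.26 ± 0.0924 for MRPL12 (1.12e-11) and 1.86 ± 0.101 for MRPS6 (2.35e-14). MRPL17 differed by -0.61 ± 0.105 (adjusted p = 2.2e-05), MRPS34 by -0.69 (3.06e-05) and MRPL2 by -0.47 (0.00106).

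**Figure D4:**
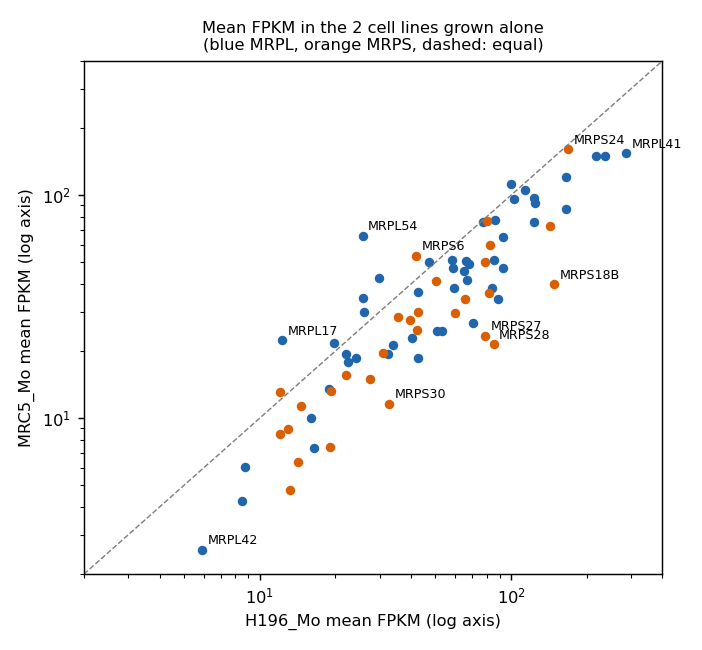
Mean FPKM of each member in H196_Mo (x axis) and MRC5_Mo (y axis), both on log axes, with MRPL genes in blue, MRPS genes in orange and a dashed line where both are equal. Levels run from 5.91 to 287.0 FPKM in H196_Mo and from 2.58 to 160.8 in MRC5_Mo, with MRPL54 above the line and MRPS28 well below it.

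Cultured alone, members differed between the lines in both directions, as genes at large did. After TMM scaling, 19 members (24.4%) were higher in MRC5_Mo than in H196_Mo and 37 (47.4%) lower, against 42.6% and 44.0% of all genes. The higher share was thus below that of all genes and the lower share near it. The median was -0.09 (-0.07 large, -0.21 small, -0.03 for all genes). With library totals alone the counts were 7 and 62 and the median of all genes was -0.45, so the overall balance between lines rests on the scaling. Cell line and any difference in preparation, among them the growth medium, cannot be told apart. MRPL54, a large subunit protein, was higher in fibroblasts at 65.8 against 25.7 FPKM (1.79 ± 0.104, adjusted p = 1.73e-15). MRPS28, the counterpart of bacterial S1, was lower at 21.5 against 85.2 FPKM (-1.54 ± 0.0849, adjusted p = 4.95e-16). Both were named after their values were seen. MRPS28 shares 111543 bases with TPD52, which had 0.5 to 10.05 counts in MRC5_Mo and 2679 to 2828 in H196_Mo, so its value is uncertain and the part of shared reads was not tested.

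Other genes of mitochondrial translation moved with the members in fibroblasts, where 37.1% of all genes were lower and 37.2% higher. Of 27 genes for mitoribosome assembly and rRNA modification, 20 were lower and 4 higher in MRC5_CoH196 (median -0.44), with MTG1, a GTPase of large subunit assembly, at 3.88 ± 0.256 against 9.55 ± 0.507 FPKM (-1.13 ± 0.0716, adjusted p = 3.91e-13). Of 15 translation factors, 11 were lower and 1 higher, with GFM1, the elongation factor G, at 7.58 ± 0.75 against 17.0 ± 0.373 FPKM (-0.99, adjusted p = 2.12e-13). Of 20 mitochondrial aminoacyl-tRNA synthetases, 11 were lower and 2 higher, with SARS2, which charges the serine tRNAs, at -0.89. All 5 mitoribosomal proteins under other symbols were lower, among them AURKAIP1 at -0.59.

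The machinery around them also fell for the most part, against 37.1% lower and 37.2% higher among all genes. Of 10 genes for transcription and upkeep of mitochondrial DNA, 6 were lower and 2 higher, and SSBP1, which binds single-stranded mitochondrial DNA, was at -0.70 (adjusted p = 5.97e-11). Of 21 import genes, 15 were lower and 2 higher (median -0.54), with the chaperone TIMM8B at 14.7 ± 2.19 against 48.7 ± 3.75 FPKM (-1.56, adjusted p = 3.4e-13). Of 13 proteases and chaperones, 10 were lower and 1 higher, HSPE1 at -1.03.

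The mitoribosome makes subunits of complexes I, III and IV and of the ATP synthase, but none of complex II. Nuclear subunits were lower in 30 of 37 for complex I (1 higher, median -0.26), 2 of 4 for complex II (1 higher), 6 of 9 for complex III (1 higher, -0.29) and 5 of 11 for complex IV (3 higher, -0.13). The shares of complexes II and IV lie near those of all genes, 37.1% lower and 37.2% higher. The most changed were NDUFS8 (-0.83), SDHB (-0.34), UQCRFS1 (-0.46) and COX7B (-0.35). For the ATP synthase 12 of 15 were lower and 0 higher, with ATP5MC1, its c-ring subunit, at -1.33. The mitochondrially encoded subunits, looked up under 26 symbols in 2 spellings, were not analysed here, so the products of the mitoribosome cannot be set beside it. By the median these lists fell less than the members, import and assembly excepted, but the difference between lists was not tested.

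**Figure D5:**
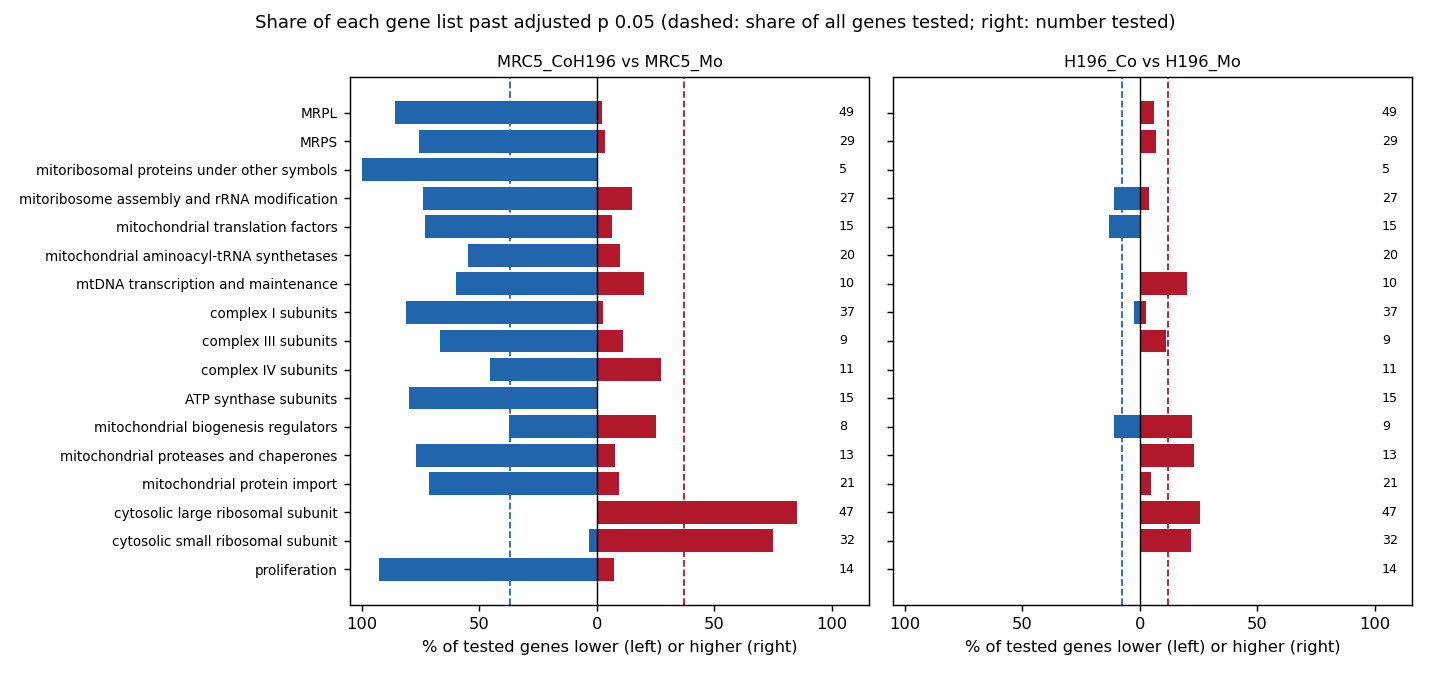
Percent of the tested genes of each list shown that were lower (blue, to the left) or higher (red, to the right) at an adjusted p under 0.05 in MRC5_CoH196 against MRC5_Mo and in H196_Co against H196_Mo, with dashed lines at the share of all genes and the number tested at the right. Complex II subunits, mitochondrial HIF targets, mitochondrially encoded subunits and cell type markers are left out of the figure. Of the members 64 of 78 were lower in fibroblasts and 5 of 78, all higher, were called in H196 cells, and the bars of cytosolic ribosomal proteins rest on TMM scaling, as the counts with library totals alone differ.

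Of 8 regulators of mitochondrial biogenesis tested in fibroblasts, 2 were higher and 3 lower, near the shares of all genes. MYC was higher at 22.6 ± 1.3 against 12.8 ± 0.83 FPKM (adjusted p = 3.07e-13), and so was YY1 (0.76). NRF1 and GABPA, the DNA-binding subunit of GABP, did not pass the test at -0.02 and 0.02, while its partner GABPB1 was lower at -0.50 and the coactivator PPRC1 at -0.59. Cytosolic ribosomal proteins did not share the fall of the members. Of the large subunit genes 40 of 47 were higher and 0 lower, and of the small subunit genes 24 of 32 were higher and 1 lower. With library totals alone 14 and 6, and 7 and 8, were higher and lower, against 3467 and 6295 of all 12819 genes. Their medians were then 0.04 and 0.01, against -0.60 for the members and -0.18 for all genes. The direction of the cytosolic genes themselves thus rests on the scaling. After TMM scaling RPL9 was at 0.51 and RPS19 at 0.40.

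In MRC5_CoH196 37.2% of all genes were higher and 37.1% lower. Of 5 mitochondrial targets of HIF tested, 4 were higher in MRC5_CoH196, with BNIP3, a receptor for mitophagy, at 415.4 ± 23.7 against 72.2 ± 1.75 FPKM (2.70, adjusted p = 5.00e-24), and HIGD1A was lower at -0.36. Of 14 proliferation genes, 13 were lower and 1 higher (median -0.81, with the replication helicase subunit MCM5 at -1.22), and their summed level was 1382 to 1603 CPM in MRC5_Mo, 1268 to 1276 in MRC5_CoH69 and 792 to 837 in MRC5_CoH196. In MRC5_CoH69, 13 of 14 were lower as well (median -0.24). The members' median log2 fold change there was -0.07, with 67 of 78 below 0, 11 above 0 and 2 called lower. The part of proliferation in the members' fall was not tested, nor was that of the fibroblast markers, of which 3 of 8 were lower and 4 higher, with COL3A1, a collagen chain, at -2.09.

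In MRC5_CoH69 3.78% of all genes were higher and 2.93% lower. The lists of mitochondrial genes held 0 or 1 call each there, apart from the mitochondrial HIF targets, of which 2 of 5 were higher. With so few calls among all genes, 0 or 1 call does not set a list apart. In H196_Co the lists of translation, respiratory chain and import genes held few calls, against 12% higher and 7.78% lower among all genes. Of the 27 assembly genes 1 was higher and 3 lower, DDX28 (-0.45, adjusted p = 0.0111), GTPBP10 (-0.29) and TRUB2 (-0.23). TFB1M, which modifies the small subunit rRNA, was higher (0.50 ± 0.0848), as were the mitochondrial DNA polymerase subunit POLG2 (0.40), NDUFA3 of complex I (0.32), UQCRC1 of complex III (0.23), the import receptor TOMM20 (0.21), the protease LONP1 (0.62, adjusted p = 6.25e-06) and MYC (0.62, adjusted p = 6.14e-06). MTRF1L, a release factor, was lower (-0.34), and so were GFM1 (-0.33, adjusted p = 0.00369), NDUFA5 of complex I (-0.27) and GABPA (-0.25). BNIP3 was higher here too (1.43). Of the cytosolic ribosomal proteins 12 of 47 and 7 of 32 were higher and 0 lower. With library totals alone 3 and 1 were higher, against 1024 of 12806 genes. Of the proliferation genes 0 of 14 passed the test in either direction, and they summed to 4437 to 4521 CPM in H196_Mo and 4125 to 4216 in H196_Co.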

How the data were processed

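Poly(A) RNA of 5 groups with 3 libraries each was sequenced on the BGISEQ platform by the authors, who filtered reads with SOAPnuke and aligned them to GRCh38.p13 with HISAT and to gene sequences with Bowtie2. The submitters' processing notes name HISAT2 2.1.0, Bowtie2 2.3.4.3 and RSEM 1.3.1. The authors deposited, per library, an expected count (a read estimate per gene that need not be whole), FPKM (fragments scaled to transcript length and depth) and TPM (used for sums as an alternative) in 1 table per cell line. Of the deposited expected counts 93.7% (MRC5) and 92.1% (H196) were whole within 1e-06. The tables list only genes of mRNA type. The authors' columns of comparisons (fold changes and p-values) and 15 columns of their normalized read counts were not used.

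Expected counts were rounded and tested with edgeR 4.0.16 (R 4.3.3): TMM factors, filterByExpr, quasi-likelihood F tests (two-sided), Benjamini-Hochberg over all genes tested, 1 fit per table, and a joint fit of 15 libraries for comparisons between lines. "Changed", "higher" and "lower" mean an adjusted p under 0.05. SE was derived from the F statistic and 95% intervals are 1.96 SE. The members and gene lists were chosen with earlier results of these data known. Named genes are the 3 members with the largest rise and fall per comparison within a line (mean of at least 10 CPM), the 3 highest and lowest in FPKM in each line alone, MRPS30, MRPS18A and MRPS36, members changed in opposite directions, and the most changed gene of each list. Other members named are marked as named after their values were seen, and other list genes are examples.

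The lists of epithelial, immune and non-neuroendocrine markers were computed as checks: in MRC5_CoH196 2 of 3 (1 lower), 1 of 1 and 2 of 2 tested genes were higher. Alternatives were DESeq2 1.42.0, limma 3.58.1 on log2 FPKM with pseudocounts of 1 and 0.1, other filters, thresholds and scalings, a replicate block and each library left out. The edgeR script was tested on simulated data and recovered 200 of 200 genes changed 2-fold for MRC5_CoH196 against MRC5_Mo. It made 8 false calls among 12702 genes. Far more genes were called in the real comparison and most members changed less than 2-fold. The simulation thus checks the script and not the scaling or the power. With 3 against 3 libraries an exact permutation test cannot go below 0.1. Genome overlaps used deposited coordinates, and strands came from RefSeq (GRCh38.p14), since the deposited strand differed for 14 of 70 members. Of the members, 29 overlap another listed gene and 42 have named pseudogenes, which could take reads. Each member had at least 100 counts in every library, and precision is limited by 3 libraries a group.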

Additional observations from a re-analysis of the deposited data

Results flagged for a closer look

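Members were picked out where the effect of co-culture was tested to differ between the cell lines. In the joint fit the response of fibroblasts to H196 differed from that of H196 cells to fibroblasts in most members, 64 lower and 1 higher in fibroblasts. The differences in log2 fold change were 1.86 for MRPS6, -1.33 for MRPL15, -1.26 for MRPL12, -1.10 for MRPL3 and -0.61 for MRPL17. Fibroblasts with H196 against fibroblasts with H69 were picked out in the same way, with 59 members lower and 4 higher. MRPS6 overlaps SLC5A3 on the same strand and MRPL12 overlaps SLC25A10, both of which moved in the same direction as the member, and how reads were shared was not tested.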

How the results depend on the processing

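Of the counts and ratios under other settings 100 stayed near the reported value and 46 moved. Of the named members' log2 fold changes 123 kept direction and call, 15 lost the call and 3 reversed. With each library left out in turn, 71 kept direction and call and 25 lost the call. Of the counts and ratios, 91 then stayed near the reported value and 17 moved. The falls in MRC5_CoH196 numbered 64, and 26 past the fold limit of 0.58 (46 with library totals, 42 and 39 with limma), while 2 higher became 1 with library totals alone (added after seeing the data), with limma on FPKM, at the fold limit and at an adjusted p under 0.01. Of all 12819 genes tested there 1885 were lower past that limit, 2978 with library totals, and 2869 and 2082 with limma. MRPL17 reversed there to -0.020 with library totals, and to -0.020 and -0.021 with limma at pseudocounts of 1 and 0.1. MRC5_CoH196 against MRC5_CoH69 gave 1 higher in place of 4 under those same settings and 23 lower in place of 59 at the fold limit (37 with library totals, 40 and 37 with limma at 0.1 and 1). All genes lower past the limit in this comparison numbered 1675 of 12819, 2627 with library totals, and 2567 and 1746 with limma. MRC5_CoH69 gave 0 lower in place of 2 with DESeq2, the replicate block, the fold limit and the stricter p, 4 with library totals and 5 with only the 2 groups. H196_Co gave, in place of 5 higher, 3 with DESeq2, 2 with library totals, limma or the replicate block, and 1 at the fold limit or stricter p, and in place of 0 lower 1 with DESeq2 size factors, 12 with library totals, and 12 and 11 with limma at 0.1 and 1. All genes lower in H196_Co under these last settings numbered 1088, 2067, 1653 and 1627 of 12806. The lines gave 7 higher and 62 lower with library totals and 7 and 16 at the fold limit (2 and 36 with library totals), and the difference of responses 27 lower at the fold limit.

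The log2 ratio of large to small subunit changed by -0.42 in MRC5_CoH196, by -0.29 in CPM, by -0.062 without MRPS6 on FPKM and on CPM, and by -0.031 for medians of log2(FPKM + 1). Against MRC5_CoH69 these were -0.43, -0.29, -0.084, -0.070 and 0.069. For MRC5_CoH69 the median gave -0.10 in place of 0.01, and for H196_Co -0.03 became -0.00754 in CPM, -0.00325 without MRPS6 in CPM and 0.13 for the median. The settings without MRPS6 were added after seeing the data.

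With each library left out, MRC5_CoH196 had 1 to 2 members higher (1 without MRC5_CoH196 replicate 1 or MRC5_Mo replicate 3) and 62 to 63 lower, and against MRC5_CoH69 2 to 4 and 57 to 59. MRC5_CoH69 had 0 to 6 lower, 6 without MRC5_Mo replicate 1 (against 486 of 12931 genes). H196_Co had 1 to 12 higher, 12 without H196_Co replicate 2 (against 1519 of 12893 genes). It had 0 to 4 lower, 4 without H196_Co replicate 1 (against 706 of 12883 genes). The lines gave 18 to 19 and 32 to 37, and the difference of responses 1 to 2 and 55 to 66, 2 without MRC5_CoH196 replicate 3. The log2 ratio ran from -0.44 to -0.40 in MRC5_CoH196, -0.45 to -0.41 against MRC5_CoH69, 0.004 to 0.02 in MRC5_CoH69 and -0.04 to -0.03 in H196_Co. Replicate numbers did not pair the samples (same-number correlations from -0.15 to 0.08), so the replicate block is given only here. It lost the calls of MRPL12 and MRPL53 in MRC5_CoH69. In H196_Co it left 2 members higher in place of 5, and MRPS34 was among the calls lost. Unless a setting itself tests fewer samples or sets a stricter limit, the cause was not tested. With 3 libraries a group, small changes may be missed.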
